A study of Mus musculus with 2 samples.

Results

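The respiratory chain and ATP synthase of the inner mitochondrial membrane carry out oxidative phosphorylation. Complex I (NADH dehydrogenase) and complex II (succinate dehydrogenase) pass electrons to ubiquinone, complex III (the cytochrome bc1 complex) passes them to cytochrome c, and complex IV (cytochrome c oxidase) passes them to oxygen, while complex V (ATP synthase) uses the proton gradient that complexes I, III and IV build. Chondrocytes live in avascular cartilage and are known for making much of their ATP by glycolysis, so their mitochondria are often discussed for signalling and stress as well as for energy supply. Nuclear genes for the subunits were taken by symbol alone: those starting with Nduf and a subunit letter, Sdh, Uqcr, Cox followed by a subunit number and letter, or Atp5. The rule found 163 probe sets of 80 genes, out of 34945 probe sets of 18193 genes named by 1 symbol, and used no measured value.

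The cells were superficial zone chondrocytes, which form the surface layer of articular cartilage, taken from the femur and tibia of ICR mice of postnatal day 4 and kept in DMEM with serum. One culture received 10 μM retinoic acid, the active form of vitamin A, for 24 h (retinoic acid, 1 array), and the other received none (control, 1 array). RNA of each was read on 1 Affymetrix mouse genome array, and the values are MAS5 signals on a linear scale. With 1 array per group there is no replicate error and no test, every ratio describes these 2 arrays only, and how many animals each culture held, or whether both cultures came from 1 preparation, is not given in the labels. A difference can therefore reflect RNA per cell, the mix of cells or the preparation, which cannot be told apart here.

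A gene was represented by its brightest probe set, and a signal counted as measured when it exceeded the median of its array, 29.7 on the retinoic acid array and 26.5 on the control array. Of all named genes 11884 were measured on at least 1 array. Chondrocyte markers were present: Prg4, which encodes lubricin, had a signal of 1148 with retinoic acid and 1920 in control, and Col2a1, the main collagen of cartilage, 7366 with retinoic acid and 9538 in control. Acan, which encodes aggrecan, had 157 with retinoic acid and 5066 in control. Of the 14 chondrocyte markers read 13 were lower with retinoic acid, against 5754 of all 11884 measured genes. Summed signals were 714 with retinoic acid and 756 in control over 19 muscle markers, and 92.3 with retinoic acid and 78.0 in control over 7 endothelial markers. Over 8 macrophage and blood cell markers the sums were 527 with retinoic acid and 503 in control. Of these, Lyz2 (354 with retinoic acid, 336 in control), Csf1r, Cd68 and Adgre1 exceeded the median of both arrays, and Ptprc lay below it on both. Pecam1 and Ucp1, which mark endothelium and brown fat, also lay below the median of both arrays. The fat marker list summed to 2730 with retinoic acid and 308 in control, of which Fabp4 alone gave 2689 and 244, while Adipoq and Cidec lay below the median of both arrays.

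Most respiratory chain genes differed little between the cultures. Of the 80 subunit genes 76 were measured, all on both arrays, and 74 of these differed by less than 1.5-fold. The median log2 ratio of retinoic acid over control was 0.089, a 1.06-fold difference, against 0.017 over all measured genes. The middle 50% of the subunit genes spanned 0.18 on the log2 scale, against 0.63 for all measured genes and 0.51 for genes with a mean signal of at least 1000. This brighter set was looked at because 62 of the subunit genes belong to it.

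Within 1.2-fold lay 59 of the 76 subunit genes (77.6%), against 43.6% of all measured genes, and 50 of the 62 bright subunit genes, against 51.3% of all bright genes. This was not particular to the chain. Of the other lists described below, 38 of 44 cytosolic ribosomal genes and 13 of 17 tricarboxylic acid cycle genes lay within 1.2-fold. The counts were 49 of 76 for mitochondrial ribosomal genes and 22 of 44 for assembly factors. At least 1.2-fold higher with retinoic acid were 12 (15.8%), against 29.5% of all measured genes, and at least 1.2-fold lower were 5 (6.58%), against 26.9%. Among bright genes the counts were 10 higher, against 27.9% of all bright genes, and 2 lower, against 20.8%. At 1.5-fold, 0 were higher (14.3% of all measured genes and 13.1% of bright ones) and 2 were lower, Atp5g1 and Cox4i2 (11.4% of all measured genes). Of the bright subunit genes 0 were 1.5-fold lower, against 7.98% of all bright genes. At 2-fold there were 0 in either direction, against 6.54% of all measured genes higher and 4.34% lower.

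**Figure D1:**
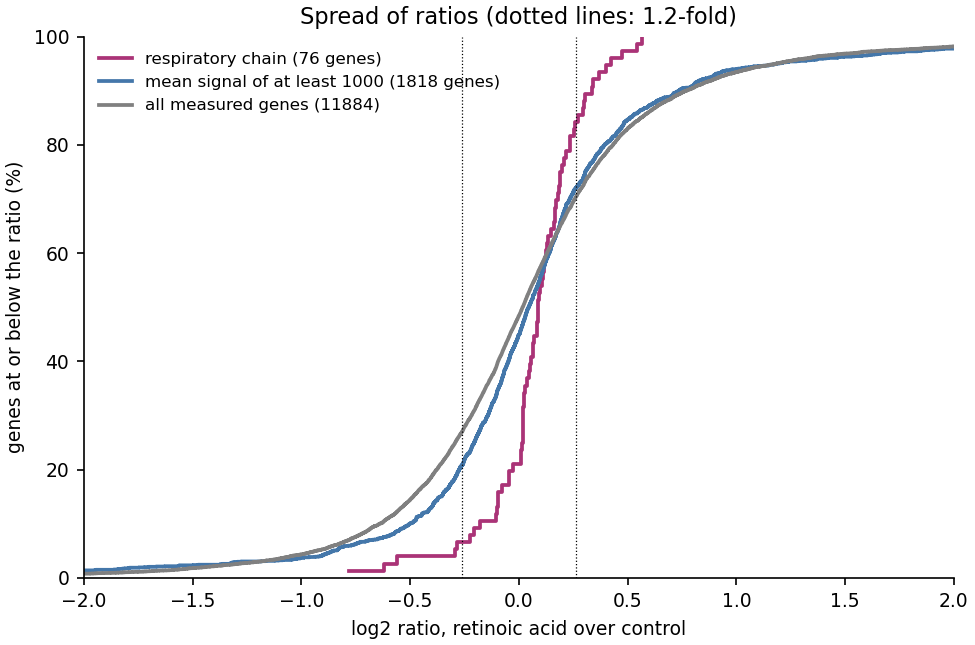
Share of genes (y axis, percent) at or below each log2 ratio of retinoic acid over control (x axis), for 76 respiratory chain genes, 1818 genes with a mean signal of at least 1000 and all 11884 measured genes. The respiratory chain curve is the steepest of the 3, with 59 of its 76 genes between the dotted lines at 1.2-fold.

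The small excess of ratios above 1 depended on how the arrays were scaled. With the deposited values 60 of 76 subunit genes (78.9%) were higher with retinoic acid, against 51.6% of all measured genes. The share was 55.3% when both arrays were given the same trimmed mean, against 44.3% of all measured genes. It was 57.9% after loess, against 46.4%, and 47.4% after quantile normalization, against 43.8%. Counts past 1.2-fold were 12 higher and 5 lower as deposited, but 6 higher and 7 lower under equal trimmed means and under quantile normalization, and 8 higher and 7 lower under loess. The median of all measured genes was −0.062, −0.063 and −0.038 under equal trimmed means, quantile normalization and loess. The subunit median stayed above that of all measured genes in each, by 0.071, 0.046 and 0.069. When no floor was set and each array's median was instead added to every signal, the subunit median exceeded that of all genes by 0.0044. Of the subunit genes 52.5% then lay above the median of all genes, against 73.7% of those measured as deposited. That setting took in all 18193 named genes, measured or not, with a median of 0.084, against 0.088 for the 80 subunit genes. The added medians were unequal, 29.7 on the retinoic acid array and 26.5 on the control array. With no floor and nothing added, the subunit median exceeded that of the same genes by 0.089.

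**Figure D2:**
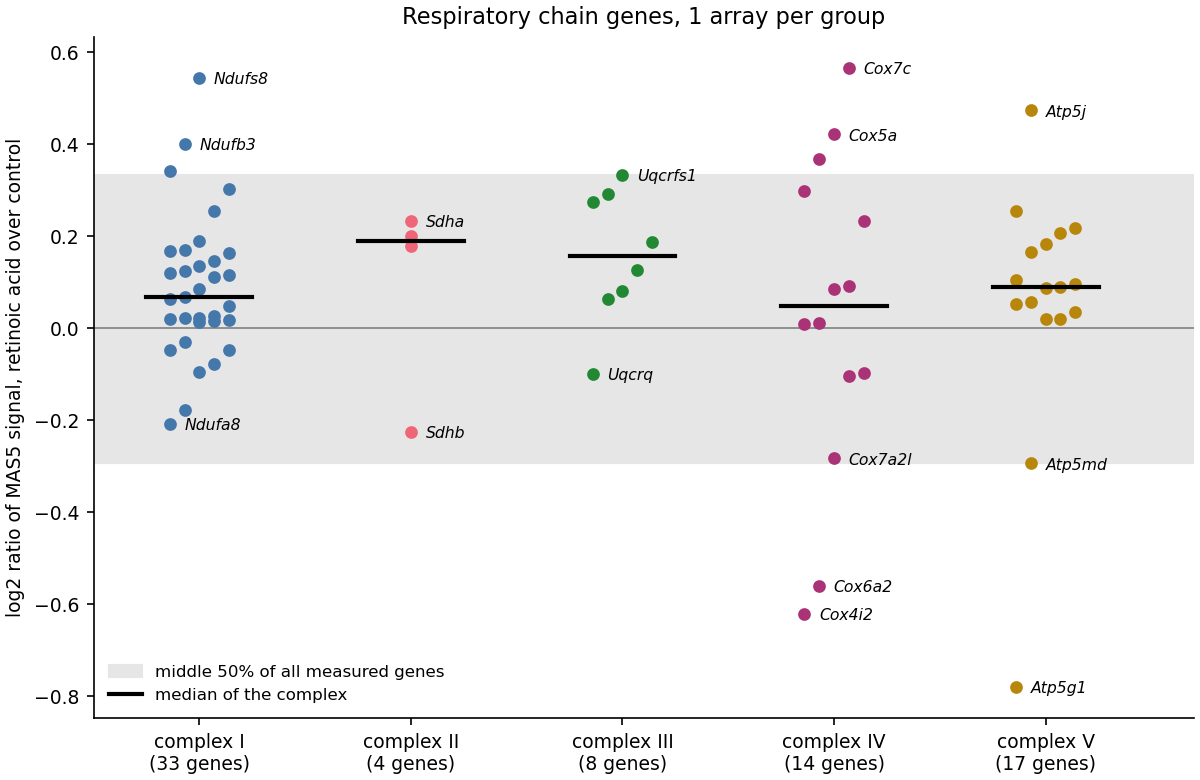
Log2 ratio of retinoic acid over control (y axis) for each measured gene of complexes I to V (x axis), 1 point per gene from 1 array per group, with a bar at the median of each complex and a grey band over the middle 50% of all measured genes. Most points lie inside the band, and Atp5g1, Cox4i2 and Cox6a2 lie lowest.

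Complex I, the largest of the complexes, had 34 genes, of which 33 were measured. The median log2 ratio was 0.068, with 26 genes higher with retinoic acid and 7 lower, against 51.6% of all measured genes higher. Past 1.2-fold were 4 higher and 0 lower, against 29.5% and 26.9% of all measured genes. These counts use the deposited scaling. Ndufs8, an iron-sulphur core subunit, had a signal of 2615 with retinoic acid and 1793 in control, a 1.46-fold difference. Its 6 probe sets above the median of both arrays did not give the same size, and their log2 ratios ran from 0.0053 to 0.54. Ndufb3, an accessory subunit of the membrane arm, had 993 with retinoic acid and 752 in control (1.32-fold higher). Ndufa3, another membrane arm subunit, had 3273 with retinoic acid and 2582 in control (1.27-fold higher), and 1.16-fold on its second probe set. Ndufa4, which was named as a complex I subunit but is now placed in complex IV, had 2542 with retinoic acid and 2060 in control (1.23-fold higher). By its symbol it is counted with complex I and its accessory genes throughout.

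Core and accessory subunits of complex I had near-equal medians. The 6 core genes, most of which hold the flavin or iron-sulphur clusters, had a median log2 ratio of 0.072, and the 27 measured accessory genes 0.068. Ndufv1, the NADH-binding flavoprotein subunit, had 1178 with retinoic acid and 1084 in control. Ndufv2, its iron-sulphur partner, had 2167 with retinoic acid and 2132 in control. Both were slightly higher with retinoic acid, as were Ndufs3 (1660 with retinoic acid, 1478 in control) and Ndufs7 (883 with retinoic acid, 869 in control). Ndufs1, the large iron-sulphur subunit that continues the electron path from the flavin, was the exception among the core genes, with 844 with retinoic acid and 955 in control (1.13-fold lower).

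The lowest ratio in complex I was that of Ndufa8, an accessory subunit on the intermembrane side, with 1094 with retinoic acid and 1263 in control (1.15-fold lower). Ndufa13, also known as GRIM-19 for its link to retinoid and interferon induced cell death in human cells, had 2892 with retinoic acid and 3088 in control (1.07-fold lower). Ndufs5 (1.06-fold lower), Ndufc1 (1.03-fold lower), Ndufb9 (1.03-fold lower) and Ndufa7 (1.02-fold lower) were the other genes below 1. The measured genes of the complex not named with a value here were higher with retinoic acid, between 1.01-fold (Ndufb5) and 1.19-fold (Ndufb6). Ndufs5, a subunit of the membrane arm facing the intermembrane space, had 1664 with retinoic acid and 1756 in control. For Ndufb9, Ndufa7, Ndufc2, Ndufb11, Ndufa12 and Ndufb8, probe sets of the same gene fell on both sides of 1. Ndufb4 was not measured on a probe set of its own (14.5 with retinoic acid, 13.7 in control), and on a probe set it shares with related genes the signal was 1916 with retinoic acid and 2099 in control. A second shared probe set was on the other side, with 1676 with retinoic acid and 1547 in control. Ndufa11 and Ndufs6 were each read only on probe sets shared with a second gene symbol and are not among the 80, and their brightest such probe sets had 1131 with retinoic acid and 1361 in control, and 1763 with retinoic acid and 1354 in control.

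Complex II links the tricarboxylic acid cycle to the chain and has 4 subunits, all encoded in the nucleus. Sdha, the flavoprotein that oxidises succinate, had 1338 with retinoic acid and 1138 in control (1.18-fold higher). The membrane anchors Sdhc (1078 with retinoic acid, 938 in control) and Sdhd (1038 with retinoic acid, 916 in control) were 1.15-fold and 1.13-fold higher. Sdhb, the iron-sulphur subunit that receives electrons from Sdha, went the other way, with 1647 with retinoic acid and 1925 in control (1.17-fold lower) on its only probe set. The second probe sets of the other genes gave larger ratios: Sdha had 914 with retinoic acid and 623 in control (1.47-fold), Sdhc 525 with retinoic acid and 383 in control (1.37-fold), and Sdhd 395 with retinoic acid and 259 in control (1.52-fold). The names of these dimmer probe sets mark them as able to bind more than 1 transcript. The same holds for the probe sets that gave 43 of the 76 subunit values, that of Sdhc among them.

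Complex III had 8 genes, with a median log2 ratio of 0.16. Of these 7 were higher with retinoic acid and 1 lower, against 51.6% of all measured genes higher. Uqcrfs1, the Rieske iron-sulphur protein that takes electrons from ubiquinol, had 1727 with retinoic acid and 1370 in control (1.26-fold higher). Uqcrc1, a core protein of the matrix side, had 1680 with retinoic acid and 1371 in control (1.22-fold higher), while its partner Uqcrc2 had 1780 with retinoic acid and 1682 in control (1.06-fold higher). Uqcrh, the hinge protein that helps cytochrome c dock, had 3536 with retinoic acid and 2925 in control (1.21-fold higher), and its second probe set gave 1.42-fold. Uqcrb, a ubiquinone-binding subunit, was 1.09-fold and Uqcr11 1.05-fold higher. Uqcrq, a small accessory subunit, was the single lower gene, with 2365 with retinoic acid and 2532 in control (1.07-fold lower), and its second probe set above both array medians was on the other side (1.06-fold higher). Cyc1, the cytochrome c1 subunit, which the naming rule does not include, had 1168 with retinoic acid and 1076 in control.

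**Figure D3:**
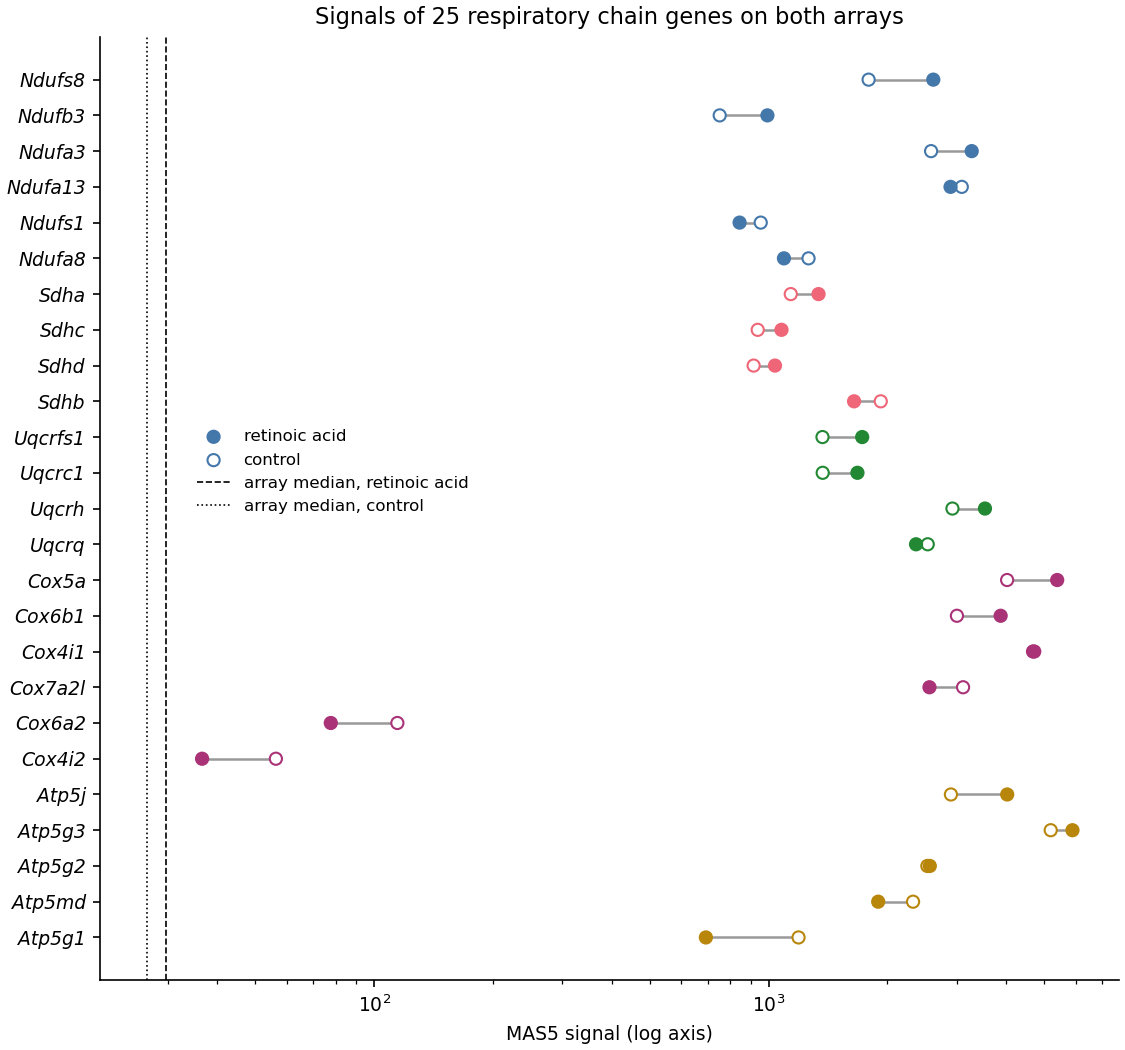
MAS5 signal (x axis, log scale) of selected measured respiratory chain genes (y axis) with retinoic acid (filled) and in control (open), coloured by complex, with each array's median as a vertical line. Each gene has 1 value per group, and among the genes drawn the gap is widest on the log axis for Atp5g1.

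Complex IV was the most spread of the 5, with the middle 50% of its 14 measured genes spanning 0.38 on the log2 scale and a median of 0.048. Cox5a, an early-assembling subunit, had 5390 with retinoic acid and 4024 in control (1.34-fold higher), and its other 2 probe sets were 1.32-fold and 1.46-fold higher. Cox6b1, which joins the monomers of the cytochrome c oxidase dimer, had 3875 with retinoic acid and 3002 in control, 1.29-fold higher on both of its probe sets. Cox6c had 4396 with retinoic acid and 3576 in control (1.23-fold higher), and 1.44-fold on its second probe set. Cox7c had the highest ratio of all subunit genes, 1.48-fold, but from a low signal, 75.7 with retinoic acid and 51.1 in control. Cox7a2l, the factor that joins complexes III and IV into supercomplexes, had 2557 with retinoic acid and 3112 in control (1.22-fold lower), with its other 2 probe sets also lower (1.23-fold and 1.15-fold).

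Several subunits of complex IV exist as a ubiquitous form and as a form of muscle, lung, testis or low oxygen. The ubiquitous genes were close to 1 or above it: Cox4i1 had 4715 with retinoic acid and 4681 in control, Cox6a1 6830 with retinoic acid and 7341 in control, and Cox8a 1943 with retinoic acid and 2078 in control. Cox7a2 had 5241 with retinoic acid and 4457 in control (1.18-fold higher). Cox5b, a zinc-binding subunit without such a counterpart, had 3932 with retinoic acid and 3704 in control. The restricted counterparts gave low signals. Cox4i2, the lung form that is raised by low oxygen, had 36.6 with retinoic acid and 56.3 in control (1.54-fold lower). Cox6a2, the heart and skeletal muscle form, had 77.6 with retinoic acid and 114 in control (1.48-fold lower). The testis forms Cox6b2 (52.7 with retinoic acid, 49.4 in control) and Cox8c (113 with retinoic acid, 113 in control) differed by less than 1.1-fold, and the muscle forms Cox7a1 and Cox8b and the testis form Cox7b2 were below the median of both arrays.

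Of the muscle markers that were read, 11 of 19 were measured. Des, which encodes the muscle intermediate filament desmin, had 50.3 with retinoic acid and 114 in control, and Ckm, the muscle creatine kinase, had 31.0 with retinoic acid and 46.2 in control. Acta1, skeletal actin, had 227 with retinoic acid and 177 in control, and Myog, a myogenic transcription factor, had 52.2 with retinoic acid and 40.0 in control. Myod1, Mb and Myh7 lay below the median of both arrays. The marker list had members on both sides, and its part in the Cox6a2 difference was not tested. Ndufa4l2, a relative of Ndufa4 that is induced by low oxygen and is not covered by the rule, had 520 with retinoic acid and 944 in control (1.82-fold lower).

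Complex V had 17 genes, all measured, with a median log2 ratio of 0.089. Of these 15 were higher with retinoic acid and 2 lower, against 51.6% of all measured genes higher. The catalytic head was even: its 5 genes, Atp5a1, Atp5b, Atp5c1, Atp5d and Atp5e, lay between 1.01-fold and 1.07-fold higher. Atp5b, the catalytic beta subunit, had 4526 with retinoic acid and 4364 in control. Atp5a1, the alpha subunit beside it, had 2658 with retinoic acid and 2486 in control. The 4 genes of the peripheral stalk, which holds the head still against the turning rotor, had a median log2 ratio of 0.24. Among them Atp5j, coupling factor 6, had 4026 with retinoic acid and 2899 in control (1.39-fold higher). Atp5o, the subunit that ties the stalk to the head, had 2566 with retinoic acid and 2151 in control (1.19-fold higher). Atp5h, the d subunit of the stalk, had 3937 with retinoic acid and 3384 in control (1.16-fold higher), and Atp5pb, the stalk's b subunit, 5085 with retinoic acid and 4727 in control (1.08-fold higher). Atp5j2, Atp5k and Atp5l, small subunits of the membrane part, were 1.15-fold, 1.06-fold and 1.04-fold higher.

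The proton-driven rotor of ATP synthase is a ring of c subunits, and its 3 genes differed. Atp5g1, Atp5g2 and Atp5g3 encode precursors with different import sequences that are cut to the same mature protein. Atp5g1 had a signal of 693 with retinoic acid and 1191 in control, 1.72-fold lower and the lowest ratio of the 76 measured subunit genes. It stayed 1.68-fold to 1.82-fold lower in the 12 alternatives that read it on this probe set. Its only other probe set was below the median of both arrays, so 1 probe set carries the value. Atp5g2 had 2563 with retinoic acid and 2526 in control (1.01-fold higher), and Atp5g3 had 5893 with retinoic acid and 5191 in control (1.14-fold higher). Atp5md, a small subunit of the membrane part also called DAPIT, was the other lower gene of the complex, with 1896 with retinoic acid and 2324 in control (1.23-fold lower). Atp5mpl, another small membrane subunit, had 2128 with retinoic acid and 1895 in control (1.12-fold higher).

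Because the c ring genes share a mature product but not a promoter, the 300 bases around their start sites (250 before and 50 after) are shown 5′ to 3′ from RefSeq, build GRCm38.p6, all on the minus strand: Atp5g1 at chr11:96075582-96075881, Atp5g2 at chr15:102670998-102671297 and Atp5g3 at chr2:73911277-73911576. Capitals mark matches on either strand to GCGCATGCG, the core of the NRF1 motif, CCGGAAGTG of ETS factors such as GABP, or TCAAGGTCA of the estrogen-related receptors.
Atp5g1: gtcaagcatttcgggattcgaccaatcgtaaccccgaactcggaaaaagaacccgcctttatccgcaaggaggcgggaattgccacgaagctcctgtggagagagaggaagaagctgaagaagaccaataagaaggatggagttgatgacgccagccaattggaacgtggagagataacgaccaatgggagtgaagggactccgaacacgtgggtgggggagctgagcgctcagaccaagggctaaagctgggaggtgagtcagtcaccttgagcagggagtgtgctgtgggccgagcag
Atp5g2: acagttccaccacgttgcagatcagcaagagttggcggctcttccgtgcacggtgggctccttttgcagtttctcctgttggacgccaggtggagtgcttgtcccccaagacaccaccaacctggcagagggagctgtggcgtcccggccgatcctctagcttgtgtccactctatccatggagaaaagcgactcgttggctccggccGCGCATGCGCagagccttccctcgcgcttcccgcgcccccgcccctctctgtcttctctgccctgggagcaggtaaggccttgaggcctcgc
Atp5g3: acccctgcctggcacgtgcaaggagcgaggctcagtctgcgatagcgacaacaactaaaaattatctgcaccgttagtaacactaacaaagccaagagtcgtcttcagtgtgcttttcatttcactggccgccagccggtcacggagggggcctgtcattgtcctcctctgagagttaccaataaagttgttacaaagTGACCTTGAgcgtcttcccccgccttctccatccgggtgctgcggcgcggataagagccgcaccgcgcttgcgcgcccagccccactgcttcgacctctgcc

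The Atp5g2 window held an NRF1 match on each strand, overlapping at bases 209 and 210, the Atp5g3 window held an ERR match at base 199, and the Atp5g1 window held none of these letters. NRF1, GABP and the estrogen-related receptors are known activators of nuclear genes for mitochondrial proteins. Promoters were listed for 66 of the 80 subunit genes. The NRF1 letters stood in the windows of 7 of them (10.6%), against 1.95% of the 27025 genes in the promoter table. The ETS letters stood in 2 (3.03%), against 2.25%, and the ERR letters in 2 (3.03%), against 0.466%. A retinoic acid response element, read as AGGTCA repeated in the same direction with 5 bases between, stood in 0 of the 66 and in 0.0111% of all. The 7 genes with NRF1 letters had a median log2 ratio of 0.056, and the 55 measured genes without them 0.12. The medians were 0.22 for the 2 genes with ETS letters and 0.18 for the 2 with ERR letters, against 0.089 for the 60 without in each case. A match is a match of letters only.

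Genes with several probe sets were read more than once within these arrays. Such readings come from the same RNA and do not stand in for repeat cultures. Of the subunit genes 46 had at least 2 probe sets above the median of both arrays. The log2 ratios of probe sets of 1 gene had a pooled SD of 0.15, against 0.30 over 4993 genes of the whole array, which were not limited to bright ones. In 34 of the 46 genes every such probe set was higher with retinoic acid, in 4 every one was lower, and in 8 they fell on both sides. Among the 4993 genes the counts were 1868, 1427 and 1698, all with the deposited scaling. The dimmest probe set gave a higher ratio than the brightest in 32 genes and a lower one in 14, with medians of 0.15 for the dimmest and 0.10 for the brightest. Over all 4993 genes the dimmest was higher in 2596 and lower in 2397, with medians of 0.071 and 0.030. Past 1.2-fold higher were 20 subunit genes when the dimmest probe set stood for each, against 12 with the brightest. The 2 that passed 1.5-fold higher that way were Sdhd and Uqcr10, a small complex III subunit (79.2 with retinoic acid and 46.5 in control on its dimmer probe set, but 1370 with retinoic acid and 1203 in control on its brightest).

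**Figure D4:**
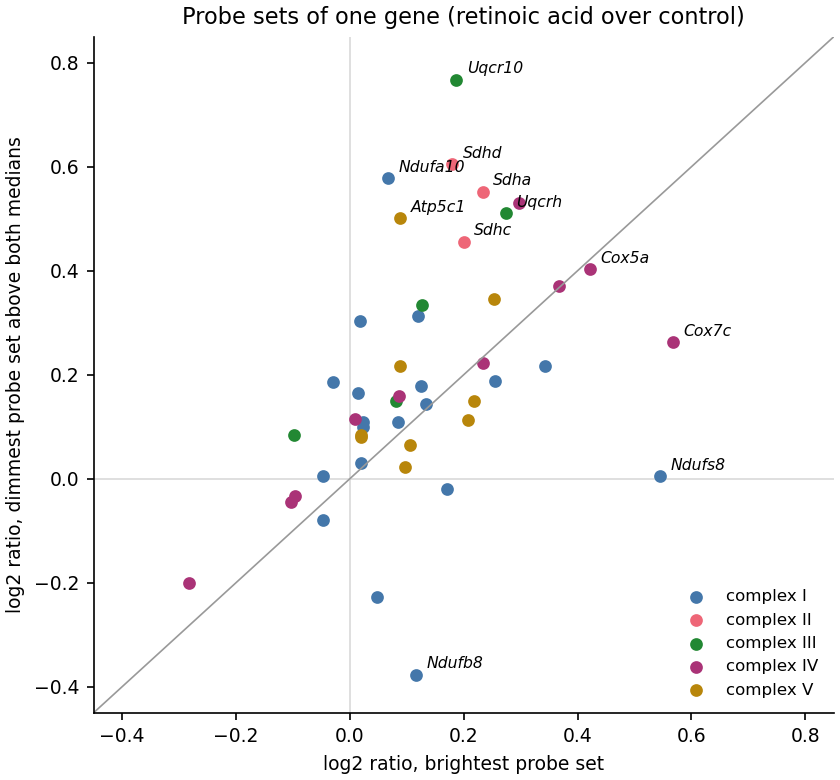
Log2 ratio of retinoic acid over control on the dimmest (y axis) and the brightest (x axis) probe set above the median of both arrays, for 46 respiratory chain genes coloured by complex; the line marks equality. In 32 genes the point lies above the line, among them Uqcr10, Sdhd and Sdha.

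Other genes of mitochondrial energy supply were read in the same way, in lists chosen by function. Cycs, which encodes the cytochrome c that carries electrons from complex III to complex IV, had 3362 with retinoic acid and 2722 in control (1.24-fold higher). The 7 measured electron carrier genes had a median log2 ratio of −0.068, with Etfb, a subunit of the electron transfer flavoprotein, 1.24-fold lower. The middle 50% of the 44 measured factors that assemble the complexes spanned 0.48, against 0.18 for the subunits, with a median of −0.084. The factors were dimmer, with a median signal of 296 with retinoic acid and 308 in control. The subunit genes had 2082 with retinoic acid and 1956 in control, and the part of brightness in this spread was not tested. Of the factors 6 passed 1.5-fold downwards (11.4% of all measured genes did) and 0 upwards (14.3% of all measured genes). The lowest were Ecsit, a complex I assembly factor that also takes part in innate immune signalling (85.7 with retinoic acid, 169 in control), Ndufaf6, another complex I factor (133 with retinoic acid, 235 in control), and Cox18, which inserts a complex IV subunit into the membrane (234 with retinoic acid, 405 in control). Against these, Cox17, a copper chaperone of complex IV, had 1578 with retinoic acid and 1204 in control (1.31-fold higher).

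Of the regulators of mitochondrial biogenesis, 18 were measured, and 1 passed 1.5-fold in each direction, against 14.3% of all measured genes higher and 11.4% lower. Ppargc1a, which encodes PGC-1α, the coactivator that drives nuclear respiratory genes through NRF1 and the estrogen-related receptors, had 176 with retinoic acid and 53.6 in control (3.29-fold higher). All 5 of its probe sets were higher with retinoic acid, and 2 of them were above the median of both arrays. The fat marker Fabp4 was 11.0-fold higher, while Adipoq and Ucp1 lay below the median of both arrays, and the part of fat cells in the Ppargc1a difference was not tested. Tfb2m, a factor needed to transcribe mitochondrial DNA, had 517 with retinoic acid and 816 in control (1.58-fold lower). Pprc1, a relative of PGC-1α, had 276 with retinoic acid and 409 in control (1.48-fold lower), on 1 probe set. The median of the list was −0.057.

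Enzymes of the tricarboxylic acid cycle, which feed NADH and succinate to the chain, had a median log2 ratio of 0.090 over 17 genes. Past 1.5-fold were 0 in either direction, against 14.3% of all measured genes higher and 11.4% lower. Idh3b, a subunit of the NAD-dependent isocitrate dehydrogenase, had 1445 with retinoic acid and 1037 in control (1.39-fold higher). Idh2, the NADP-dependent enzyme of the matrix, had 1025 with retinoic acid and 737 in control (1.39-fold higher), and Suclg2, which makes GTP from succinyl-CoA, had 756 with retinoic acid and 1084 in control (1.44-fold lower). Mitochondrial carriers had a median of −0.084 over 12 measured genes, with the aspartate-glutamate carriers Slc25a13 1.82-fold higher and Slc25a12 1.51-fold lower, and the dicarboxylate carrier Slc25a10 1.48-fold higher. A dimmer Slc25a12 probe set above both array medians went the other way (1.24-fold higher).

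The 76 genes of the mitochondrial ribosome, which translates the chain subunits encoded in mitochondrial DNA, had a median log2 ratio of −0.097, and 25 (32.9%) were higher with retinoic acid and 51 lower, against 51.6% of all measured genes higher. At least 1.5-fold higher were Mrpl34 and Mrps33 (14.3% of all measured genes), and 4 (11.4% of all measured genes) were at least 1.5-fold lower, with Mrpl57 (918 with retinoic acid, 1630 in control) the lowest. The 44 measured genes of the cytosolic ribosome had a median of −0.079 and a middle 50% spanning 0.13, narrower than the 0.18 of the subunit genes. Rps27 was past 1.5-fold higher (14.3% of all measured genes) and Rpl12 past 1.5-fold lower (11.4%), both from signals below 400. Glycolysis genes had a median of −0.0017 over 17 genes. Ldhb, the lactate dehydrogenase form typical of oxidative tissue, had 1569 with retinoic acid and 590 in control (2.66-fold higher, and higher on all 4 of its probe sets). Aldoc, an aldolase, had 161 with retinoic acid and 470 in control (2.92-fold lower), and Pfkp, a phosphofructokinase, was 1.52-fold lower.

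**Figure D5:**
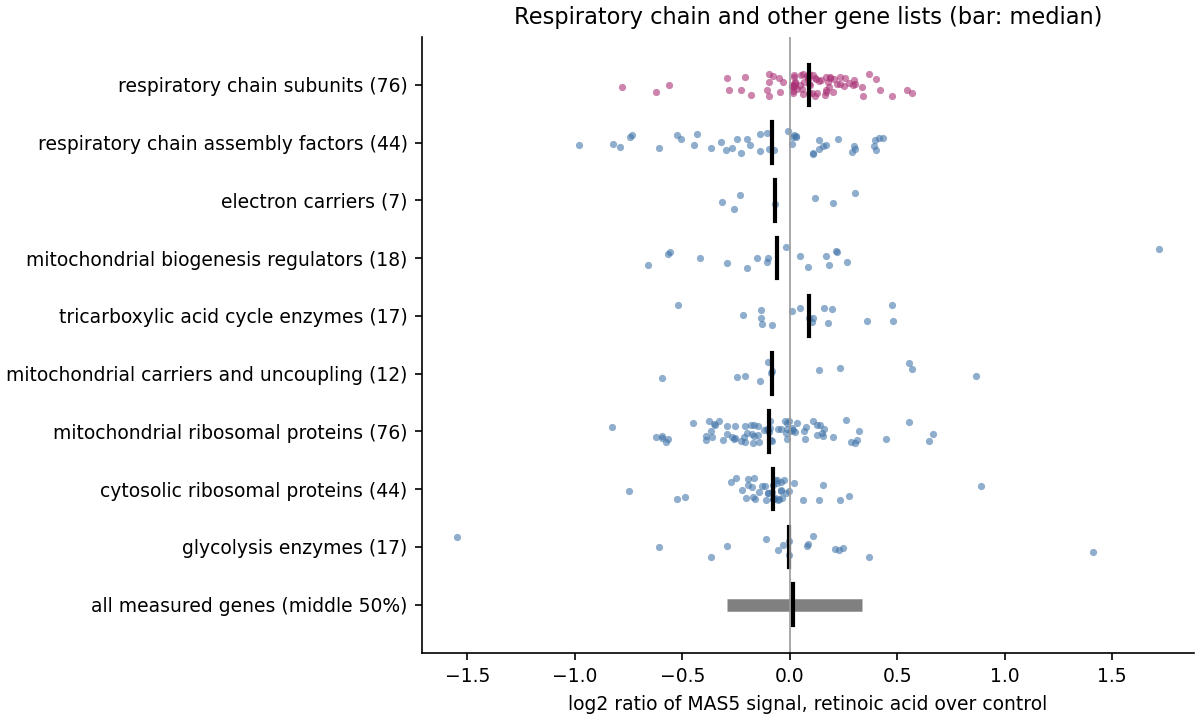
Log2 ratio of retinoic acid over control (x axis) for measured genes of the respiratory chain and 8 other lists (y axis, number of genes in brackets), 1 point per gene, with a bar at each median and a grey bar over the middle 50% of all measured genes. The respiratory chain points lie close together, as do most points of the cytosolic ribosomal genes, and Ppargc1a is the far point among the biogenesis regulators.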

How the data were processed

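The authors deposited 1 linear intensity per probe set and array, made with MAS5 per the submitters' processing notes, with a version and scaling target not given in the sources used here. Values were used as deposited. Of 45037 probe sets other than controls, 34945 had 1 gene symbol in the platform's annotation, 932 several and 9160 none. Only those with 1 symbol were used, which leaves out 9 that list a respiratory chain symbol beside another gene. Signals at or below their array's median were raised to it before log2 ratios of retinoic acid over control were taken. The members and lists were chosen with earlier results of these data known. Named genes were all members past 1.5-fold, the 3 highest and 3 lowest per complex, the 10 with the highest signal, all Sdh, c ring and complex IV isoform genes, members whose probe sets differ in sign past 1.2-fold, and up to 3 per other list; others were named after their values were seen. Lists were described by counts and medians beside those of all measured genes, with no test. The counting was tested on simulated data, with 2-fold changes put in and counted at 1.5-fold. The simulated noise was smaller than the spread between probe sets of 1 gene, and counts at 1.2-fold were not tested. Promoters were RefSeq windows of 300 bases. Alternatives were other floors, an offset, 4 scalings, other choices of probe set and, added after seeing the data, 3 more (genes above both floors, the dimmest probe set, no tissue isoforms). Python 3.11.15 with pandas 2.3.3, numpy 2.4.6, statsmodels 0.14.6 and matplotlib 3.10.9 was used.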

Additional observations from a re-analysis of the deposited data

How the results depend on the processing

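With 1 array per group no error between cultures can be given, and no library can be left out. No paired analysis was possible because each group has 1 sample. Over 13 alternatives the median log2 ratio of the respiratory chain ran from −0.017 to 0.11. It was negative only after quantile normalization (−0.017), where complex I was −0.031, complex IV −0.047 and complex V −0.022. Under equal trimmed means complex I was −0.012 and complex IV −0.031, and complex IV was −0.021 under loess. The complex IV median was 0.0087 with no floor, 0.0096 with a floor at the 30th percentile and 0.011 with the offset. Larger than as reported were the complex II median (0.36 with the median over probe sets, 0.50 with the dimmest probe set), the complex III median (0.26 with the median over probe sets, 0.33 with unique probe sets only, 0.31 with the dimmest) and the complex IV median (0.17 with unique probe sets only, 0.16 without tissue isoforms). Genes at least 1.5-fold lower numbered 2 as reported, 1 with a floor at the 70th percentile, with the offset, with unique probe sets only and without tissue isoforms, and 5 with no floor. Genes at least 1.5-fold higher numbered 0, but 2 with the dimmest probe set. Genes at least 1.2-fold higher numbered 12, but 6 under equal trimmed means and after quantile normalization, and 8 under loess. They numbered 18 with the median over probe sets and 20 with the dimmest probe set. Genes at least 1.2-fold lower numbered 5, but 3 with a floor at the 70th percentile or without tissue isoforms, and 8 with no floor. The cause of these shifts was not tested. Cox4i2 and Cox6a2 lie near the floor, and their log2 ratios were −0.32 and −0.39 with the offset.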
